A study of Mus musculus with 6 samples.

Results

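Type 2 conventional dendritic cells (cDC2) were taken from single-cell RNA libraries of mouse liver as barcodes that passed 300 detected genes, stayed below 25% mitochondrial UMIs (unique molecular identifiers, each counting 1 captured transcript) and held at least 2 of the 5 transcripts Cd209a, Mgl2, Clec10a, Flt3 and Kmo. Barcodes with any UMI of Xcr1 or Clec9a (type 1 conventional dendritic cells, cDC1), Cd3e (T cells), Cd79a (B cells) or Siglech (plasmacytoid dendritic cells) were left out. So were barcodes with 3 or more of the maturation genes Ccr7, Fscn1, Ccl22, Il4i1 and Cacnb3, or 2 or more of Clec4f and Vsig4 (Kupffer cells) and Stab2 (sinusoidal endothelium). The rule gave 660 members of 66935 kept barcodes, 0.986%.

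The series follows the liver during metastatic spread of colorectal cancer with 2 libraries in each of 3 groups. Control livers carry the genotype label ctrl, and livers named pre-metastatic niches or macro-metastatic niche come from an orthotopic model of the disease. All 6 libraries, controls included, carry the label CT26-GFP, a mouse colon carcinoma line with green fluorescent protein. The labels used here name no strain, age or time after tumour placement. Each whole liver was digested with collagenase II, freed of erythrocytes and of dead cells, and captured on the BD Rhapsody system. Whether replicate libraries came from different animals is not stated, and each p-value therefore reflects library-to-library spread alone, which may be technical.

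As background, cDC2 are the branch of conventional dendritic cells that depends on the transcription factor Irf4 and presents antigen on MHC class II, mainly to CD4+ T cells, whereas cDC1 cross-present antigen to CD8+ T cells. Both arise from Flt3-dependent precursors. Cd209a, Mgl2 and Clec10a encode C-type lectins that bind sugars on antigens, and Kmo encodes an enzyme of tryptophan breakdown. Monocytes that enter inflamed tissue can gain several of the same transcripts, so these markers alone do not separate cDC2 from monocyte-derived cells.

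The control libraries held 15 and 41 members, the pre-metastatic libraries 200 and 195, and the macro-metastatic libraries 109 and 100. Members had median UMI counts of 4354 and 4182 for control, 5109 and 5227 for pre-metastatic and 9054 and 7749 for macro-metastatic libraries. Their summed UMIs were 73079 and 217128 for control, 1132722 and 1162521 for pre-metastatic and 1202860 and 861431 for macro-metastatic libraries. The control sums are thus the shallowest and rest on few barcodes. Any 2 libraries shared between 126 and 222 barcode sequences, and 1 shared sequence was a member in both libraries.

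Members were chosen by the measured UMIs of the 5 rule transcripts and of the excluded and capped genes, so those levels are described here without a test. Cd209a was found in 513 members, Clec10a in 384, Flt3 in 376, Mgl2 in 342 and Kmo in 302. Cd209a had 2434 and 1169.5 CPM (counts scaled to a common total of summed UMIs) for control, 2095 and 2291 for pre-metastatic and 798 and 979 for macro-metastatic libraries. Both macro-metastatic libraries therefore lay below all others. Mgl2 had 432 and 246 CPM for control, 995 and 1663 for pre-metastatic and 529 and 345 for macro-metastatic libraries. Pre-metastatic libraries were the highest and the other groups overlapped. Flt3, the receptor for the growth factor of dendritic cell precursors, ran from 118 to 225 CPM with all 3 groups overlapping.

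Markers outside the rule were then read as a check of the label. H2-Ab1, the beta chain of an MHC class II molecule, had 6020.3 and 3665 CPM for control, 5384 and 7099.7 for pre-metastatic and 5894 and 7279 for macro-metastatic libraries. Itgax, which encodes CD11c, had 471 and 417 CPM for control, 443 and 535 for pre-metastatic and 256 and 385 for macro-metastatic libraries. With each barcode thinned to 2000 UMIs, an Itgax UMI was found in 9 of 15 and 15 of 38 control members, in 94 of 188 and 108 of 183 pre-metastatic members, and in 38 of 108 and 45 of 93 macro-metastatic members. Equally thinned B cells, which should lack Itgax, reached at most 1.17% in any library. Zbtb46, a transcription factor of conventional dendritic cells, was low, with 91.6 and 56.8 CPM for control, 48.7 and 53.0 for pre-metastatic and 30.6 and 26.7 for macro-metastatic libraries. Irf4 had 52.4 and 28.4, 51.3 and 76.3, and 83.0 and 81.4 CPM in the same order. Thinned members with a Zbtb46 UMI were 40.0% and 7.89%, 9.04% and 9.29%, and 3.70% and 7.53%. Thinned B cells had 3.42% and 3.88%, 1.67% and 1.79%, and 2.04% and 0.391%. For Irf4 thinned members had 13.3% and 0%, 12.8% and 15.3%, and 14.8% and 10.8%. These lay below B cells (28.1% to 51.0%) in every library. None of these 4 genes passed the test in any comparison described below.

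**Figure D1:**
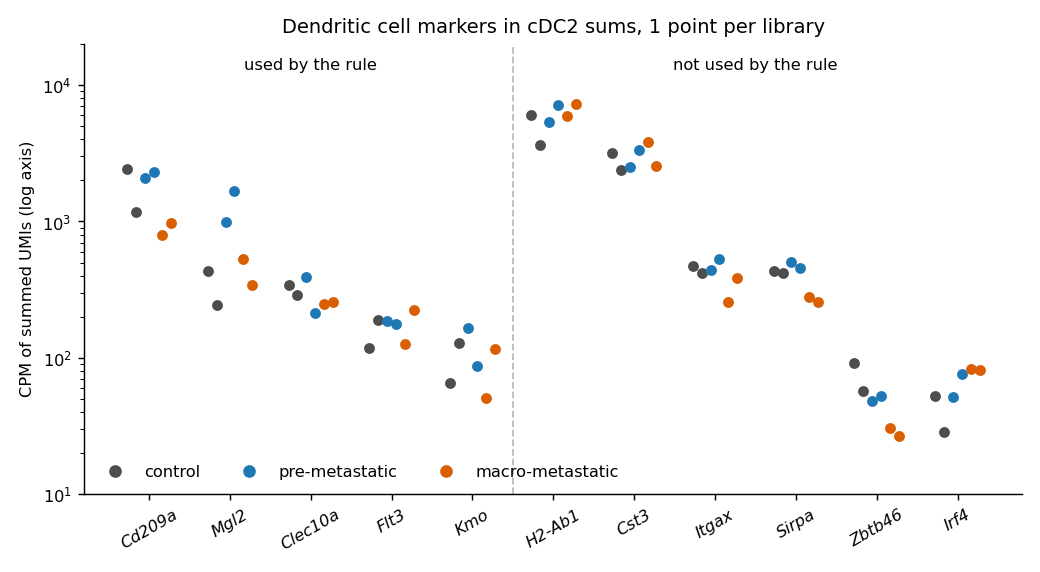
Level of 11 dendritic cell markers in the summed cDC2 counts (log axis, CPM), 1 point per library and coloured by group. Cd209a was lowest in the macro-metastatic libraries (798 and 979 CPM), while H2-Ab1 overlapped between groups. The 5 markers left of the dashed line chose the members.

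The members were not a pure population. Of the 660, 396 also met a gate for monocytes or macrophages, 88 the planned cDC1 gate of 2 or more from a marker list, which does not need Xcr1 or Clec9a, 58 one for endothelial cells (39 of them in pre-metastatic replicate 2), 39 one for Kupffer cells and 32 one for neutrophils, and 167 met no other gate. Each barcode was counted in 1 class, so those 88 are not among the cDC1 that cDC2 are compared with below. Members with exactly 2 rule markers numbered 6 and 26 for control, 74 and 57 for pre-metastatic and 65 and 47 for macro-metastatic libraries. Those of macro-metastatic replicate 1 had 97.5 CPM of Itgax and 6382 CPM of Lyz2, a gene of monocytes and macrophages, against 494 and 2137 CPM in its members with 3 or more markers. Barcodes just outside the rule, with exactly 1 marker, had 42.1 CPM of Itgax and 10342 CPM of Lyz2 in that library. In pre-metastatic replicate 2 members with exactly 2 markers had 525 CPM of Itgax, beside 508 for 3 or more markers, but 3073 of Lyz2 against 1417, and barcodes with 1 marker had 55.9 and 2214. In pre-metastatic replicate 1 both genes differed, with 297 and 4079 CPM for exactly 2 markers against 560 and 2242 for 3 or more. Macro-metastatic replicate 2 had 245 and 6042 CPM against 492 and 627. In control replicate 2 the values were 221 and 11196 CPM against 849 and 2988. Control replicate 1 had 481 and 7128 CPM against 499 and 1393. A stricter set, chosen after seeing the data, required H2-Ab1 and Cd74 and removed barcodes with transcripts of granulocyte precursors, Ly6c2 or several endothelial or macrophage genes. It kept 424 members, only 9 and 19 of them in the control libraries, so its calls against control rest on few barcodes. Its value stands below beside results whose call it changed.

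The summed level of other cells' marker lists also differed between libraries. The 20 hepatocyte markers together reached 16285 CPM in control replicate 2, against 493 in control replicate 1, 802 and 2849 for pre-metastatic and 120 and 140.5 for macro-metastatic libraries, with Serpina1e at 0 throughout. The 12 neutrophil markers stood at 95.8 and 157 CPM for control, 1069 and 1135 for pre-metastatic and 2582 and 1747 for macro-metastatic libraries. Kupffer markers, 11 in all, had 137 and 1004, 255 and 261, and 1182 and 1054 CPM in the same order. The stricter set left 451 and 479.6 CPM of them in the macro-metastatic libraries. It did not lower the hepatocyte markers of control replicate 2, which stood at 32276 CPM in that set. Neutrophil markers thus followed the order of the disease stages, and their part in the results was not tested.

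**Figure D2:**
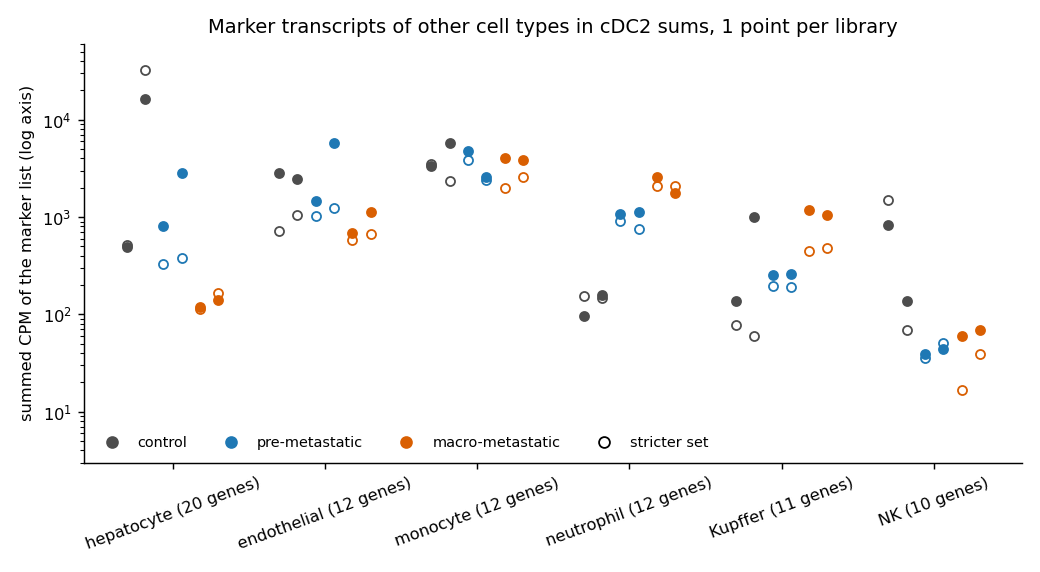
Summed level of 6 marker lists of other cell types in the cDC2 counts (log axis, CPM), 1 filled point per library for all members and 1 open point for the stricter set. Neutrophil markers stood at 95.8 and 157 CPM in control and at 2582 and 1747 CPM in macro-metastatic libraries, and hepatocyte markers peaked in control replicate 2.

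The first comparison asked how the share of cDC2 among liver cells differed between stages. cDC2 made up 0.158% (Wilson 95% interval 0.0958 to 0.261%) and 0.395% (0.292 to 0.536%) of kept barcodes for control, 1.94% (1.69 to 2.22%) and 1.83% (1.59 to 2.10%) for pre-metastatic and 0.905% (0.751 to 1.09%) and 0.712% (0.586 to 0.865%) for macro-metastatic libraries. The 3 groups did not overlap, and the pre-metastatic livers held the largest shares. Group means were 0.277% ± 0.168 (SD, n = 2), 1.88% ± 0.0753 and 0.808% ± 0.136. Intervals cover counting error only.

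With edgeR's quasi-likelihood test over 13 cell classes, the share was higher in pre-metastatic than in control libraries by a log2 value of 2.76 (SE 0.53, adjusted p = 0.0216) and higher in macro-metastatic than in control libraries by 1.54 (SE 0.51, adjusted p = 0.0394). Macro-metastatic against pre-metastatic libraries gave -1.22 (SE 0.49, adjusted p = 0.0944). Thinned to 1000 UMIs per barcode before the rule, shares were 0.163% and 0.244%, 1.46% and 1.76%, and 0.497% and 0.413%, and the last comparison then passed at -1.82 (adjusted p = 0.0427). The increase before metastasis lost its call without control replicate 1 (2.25, adjusted p = 0.0987), pre-metastatic replicate 1 (2.72, adjusted p = 0.112) or pre-metastatic replicate 2 (2.80, adjusted p = 0.0779). The macro-metastatic increase lost it when any library but macro-metastatic replicate 2 was left out (1.03 to 2.35, adjusted p up to 0.119), and with immune barcodes as the total (1.14, adjusted p = 0.136).

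**Figure D3:**
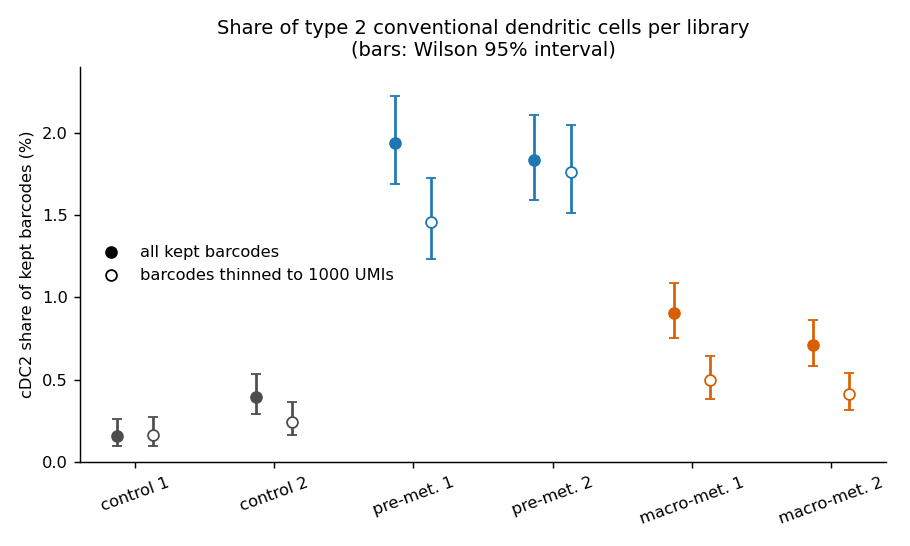
Share of cDC2 among kept barcodes in each library (percent), for all kept barcodes (filled) and after thinning to 1000 UMIs (open), with Wilson 95% intervals. Pre-metastatic libraries sit at 1.94% and 1.83%, above every control and macro-metastatic library.

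Shares of cDC1 are given beside these. Barcodes of the cDC1 gate with Xcr1 or Clec9a made up 2.37% ± 0.300 (SD, n = 2) of kept barcodes in control, 6.19% ± 0.781 for pre-metastatic and 4.82% ± 0.116 for macro-metastatic libraries. Within all dendritic gates counted that way, cDC2 held 3.44% and 8.07% for control, 20.5% and 15.8% for pre-metastatic and 14.9% and 10.2% for macro-metastatic libraries. Whether the rise differed between cDC2 and cDC1 was not tested.

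Genes were then compared between groups in the summed counts, over 8913 genes in 1 edgeR fit. In a sum, fewer expressing cells and less RNA per cell cannot be told apart. No gene passed between pre-metastatic and control libraries (percent called 0), where 687 genes had an unadjusted p under 0.05 and DESeq2 called 17. Macro-metastatic against control libraries gave 123 higher and 29 lower genes (percent called 1.71, with 1.38 higher and 0.325 lower), and macro-metastatic against pre-metastatic libraries gave 249 higher and 58 lower genes (percent called 3.44, with 2.79 higher and 0.651 lower). The macro-metastatic comparison with control rests on the 41 barcodes of control replicate 2: 0 genes passed without it, 18 without macro-metastatic replicate 1, 42 without macro-metastatic replicate 2, 220 without control replicate 1, and 301 and 308 without pre-metastatic replicates 1 and 2. The comparison with pre-metastatic libraries, where each library holds at least 100 members, gave 39 and 97 genes without macro-metastatic replicates 1 and 2, 351 and 165 without pre-metastatic replicates 1 and 2, and 496 and 504 without control replicates 1 and 2. All 40 calls against control of genes named by the rule for named genes were lost without control replicate 2, 35 without macro-metastatic replicate 1, 27 without macro-metastatic replicate 2 and 12 without control replicate 1. The stricter set lost 12 of the 37 it could test, and 1 of 13 against pre-metastatic libraries. Other member rules lost more. Without barcodes that also met another gate, 27 of 36 calls against control and 4 of 10 against pre-metastatic libraries were lost. With at least 3 rule markers 18 of 38 and 3 of 14 were lost, and with Flt3 required 11 of 39 and 2 of 15. The stricter set called 29, 223 and 457 genes in the 3 comparisons, out of 6146 tested (percent called 0.472, 3.63 and 7.44).

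Of the 152 genes called between macro-metastatic and control cDC2, 143 were measured in B cells, where 139 had the same sign and 100 were called too (percent called 11.2 among 8782 genes tested in B cells). For 6 of the 143 the change in cDC2 was called different from that in B cells. That test recovered 30.1% of simulated 8-fold differences against control and 54.2% against pre-metastatic libraries. An absent call is thus no sign of a shared change. Of the 307 genes called against pre-metastatic libraries, 264 were measured in B cells, 255 had the same sign there, 170 were called (percent called 7.44) and 2 differed. All comparisons between cDC2 and B cells use the same libraries, and the part of free RNA in them was not tested. For S100a8, a neutrophil gene, thinned members with a UMI were 43.5% and 16.1% in macro-metastatic libraries against 44.9% and 27.3% of B cells, so its share in cDC2 did not exceed that background.

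Cd209a, Cd209b, Cd209c and Cd209d lie near each other on chromosome 8. Their products are sugar-binding surface receptors related to human DC-SIGN. Cd209b (chr8:3917655-3926844, minus strand, mm10) had 39.3 and 23.7 CPM for control, 106 and 188 for pre-metastatic and 5.24 and 7.29 for macro-metastatic libraries. It was highest before metastasis and lowest with macro-metastases, without overlap between groups. Macro-metastatic fell below pre-metastatic libraries by a log2 value of 4.55 (SE 0.43, adjusted p = 0.0012).

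Cd209d (chr8:3871824-3878555, minus strand) had 39.3 and 66.3 CPM for control, 215 and 361 for pre-metastatic and 29.7 and 43.7 for macro-metastatic libraries. It fell by 2.98 (SE 0.35, adjusted p = 0.00333) from pre-metastatic to macro-metastatic libraries, while control and macro-metastatic libraries overlapped. The stricter set gave -4.76 and -2.91, and Cd209b lost its call with Flt3 required in each member (adjusted p = 0.0622) and Cd209d without macro-metastatic replicate 1 (-2.66, adjusted p = 0.0704). Cd209c, named after its values were seen, had 13.1 and 18.9, 104 and 109, and 41.9 and 42.5 CPM, a fall of 1.33 (SE 0.26, adjusted p = 0.0268) that missed the threshold in the stricter set (-1.07, adjusted p = 0.107).

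The share of members carrying these transcripts was also counted. Thinned to 2000 UMIs, a Cd209d UMI was found in 20.7% and 35.5% of pre-metastatic and 3.70% and 8.60% of macro-metastatic members, and in 0 B cells. Cd209b was found in 9.04% and 15.8% against 3.70% and 1.08%, with at most 0.833% of B cells in any library. In cDC1 with Xcr1 or Clec9a, Cd209d changed by -2.95 and Cd209b by -1.75 between the same groups. The fall of Cd209b in cDC2 exceeded that in cDC1 by the planned gate (-3.21, SE 0.42, adjusted p = 0.041), but not with Xcr1 or Clec9a required (-2.78, adjusted p = 0.136). For Cd209d the difference was -0.06 by the planned gate.

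The promoters of Cd209a and Cd209d are shown because these lectin genes lie near each other and both hold the core GGAAGT. That core, searched on both strands, is bound by the myeloid factor PU.1. The pair was thus picked for holding it. Cd209a served to choose the members, so its level is no ground for pairing it with Cd209d. Each is 300 bases from RefSeq on GRCm38.p6, read 5′ to 3′ along the minus strand from 250 bases before to 50 bases after the start, with the motif in capitals. The windows lie at chr8:3748935-3749234 for Cd209a and chr8:3878450-3878749 for Cd209d.
Cd209a: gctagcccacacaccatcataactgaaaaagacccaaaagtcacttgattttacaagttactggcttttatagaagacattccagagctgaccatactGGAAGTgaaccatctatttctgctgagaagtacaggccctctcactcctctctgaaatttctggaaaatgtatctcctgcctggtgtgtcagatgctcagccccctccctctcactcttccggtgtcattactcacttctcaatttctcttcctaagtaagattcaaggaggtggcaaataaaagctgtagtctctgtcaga
Cd209d: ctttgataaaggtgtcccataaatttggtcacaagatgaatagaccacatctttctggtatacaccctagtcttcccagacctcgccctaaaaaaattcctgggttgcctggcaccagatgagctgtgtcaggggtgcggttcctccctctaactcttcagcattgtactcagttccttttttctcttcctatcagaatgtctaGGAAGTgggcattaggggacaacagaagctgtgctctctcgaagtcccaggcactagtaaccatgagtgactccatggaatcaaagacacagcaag
Each holds 1 match, and the windows of Cd209b and Cd209c, which also fell against pre-metastatic libraries, hold 0. Among all 32851 RefSeq promoters of this length, 23.8% hold the motif on either strand. A match describes letters and not a bound site.

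Several genes of hypoxia and glycolysis rose with macro-metastases. Of 25 tested list members, 7 rose and 0 fell against control (percent called 1.38 for higher genes): Hilpda, Slc2a1, Gpi1, Aldoa, Gapdh, Pkm and Ndrg1. The list's median log2 fold change was 0.94, beside 0.03 over all genes, and the other 18 members did not pass. The stricter set called Hilpda, Gapdh, Pkm and Ndrg1 higher and Bnip3, a mitochondrial protein of the hypoxia response, lower (-4.04, adjusted p = 0.0364), and lost Slc2a1 (adjusted p = 0.0539), Gpi1 (adjusted p = 0.137) and Aldoa (adjusted p = 0.112). Against pre-metastatic libraries 7 rose and 0 fell (percent called 2.79 for higher genes), with Eno1 in place of Ndrg1 and a median of 0.81 beside -0.03. The list's median difference from B cells was 0.81 against control and 0.38 against pre-metastatic libraries, over 22 genes. Between pre-metastatic and control libraries the median was -0.14.

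Hilpda (chr6:29272488-29275446, plus strand), a lipid droplet protein induced by hypoxia, had 26.2 and 37.9 CPM for control, 109 and 211 for pre-metastatic and 1033 and 962 for macro-metastatic libraries. The 3 groups were ordered without overlap. It rose by 4.86 on the log2 scale against control (SE 0.43, adjusted p = 0.00269) and by 2.64 against pre-metastatic libraries (SE 0.31, adjusted p = 0.00333). The change against control exceeded that in B cells by 2.52 (SE 0.45, adjusted p = 0.00833). cDC1 had 3.71, and the difference from cDC1 was 1.16 (adjusted p = 0.422) by the planned gate. With members thinned to 2000 UMIs, 69.4% and 65.6% of macro-metastatic members held a Hilpda UMI, beside 30.6% and 27.3% of B cells, and 6.67% and 5.26% of control members. Its call against control was lost without control replicate 2 (5.35, adjusted p = 0.0861).

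Gapdh, an enzyme of glycolysis, had 131 and 213 CPM for control, 87.2 and 98.7 for pre-metastatic and 1377 and 1209 for macro-metastatic libraries. It rose by 3.80 (SE 0.25, adjusted p = 0.000374) against pre-metastatic libraries, and B cells had 2.76 and cDC1 3.63 for the same comparison. Pkm, which encodes pyruvate kinase, had 52.4 and 80.5, 83.7 and 94.2, and 356 and 335 CPM, a rise of 1.96 (SE 0.23, adjusted p = 0.00342). Both genes stood clearly apart in macro-metastatic libraries. Slc2a1, the glucose transporter GLUT1, had no UMI in either control library, 12.8 and 17.1 CPM for pre-metastatic and 55.0 and 47.4 for macro-metastatic libraries. Against a floor of 3 counts over the control group (10.34 CPM), it was at least 4.78-fold higher with macro-metastases.

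The promoters of Hilpda and Slc2a1 are shown because these genes rose together and both are textbook targets of hypoxia-inducible factors, whose core motif ACGTG, searched on both strands, is in capitals. Both windows come from RefSeq on GRCm38.p6 in the frame used above, along the plus strand. They lie at chr6:29272376-29272675 for the second listed Hilpda start and chr4:119108495-119108794 for Slc2a1.
Hilpda: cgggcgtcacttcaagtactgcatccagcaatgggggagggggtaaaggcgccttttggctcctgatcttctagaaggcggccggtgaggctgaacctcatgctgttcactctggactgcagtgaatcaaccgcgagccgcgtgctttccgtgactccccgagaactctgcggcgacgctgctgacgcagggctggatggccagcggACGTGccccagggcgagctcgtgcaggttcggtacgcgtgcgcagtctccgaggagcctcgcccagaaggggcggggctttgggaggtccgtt
Slc2a1: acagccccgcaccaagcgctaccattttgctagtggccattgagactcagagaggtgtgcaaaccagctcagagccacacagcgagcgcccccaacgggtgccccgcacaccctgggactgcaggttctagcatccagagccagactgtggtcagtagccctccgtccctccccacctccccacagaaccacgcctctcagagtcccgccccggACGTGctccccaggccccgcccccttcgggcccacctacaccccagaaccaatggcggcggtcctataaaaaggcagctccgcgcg
Each holds 1 match, and the window of the first Hilpda start holds 0. The motif occurs in 19.6% of all 32851 promoters of this length.

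**Figure D4:**
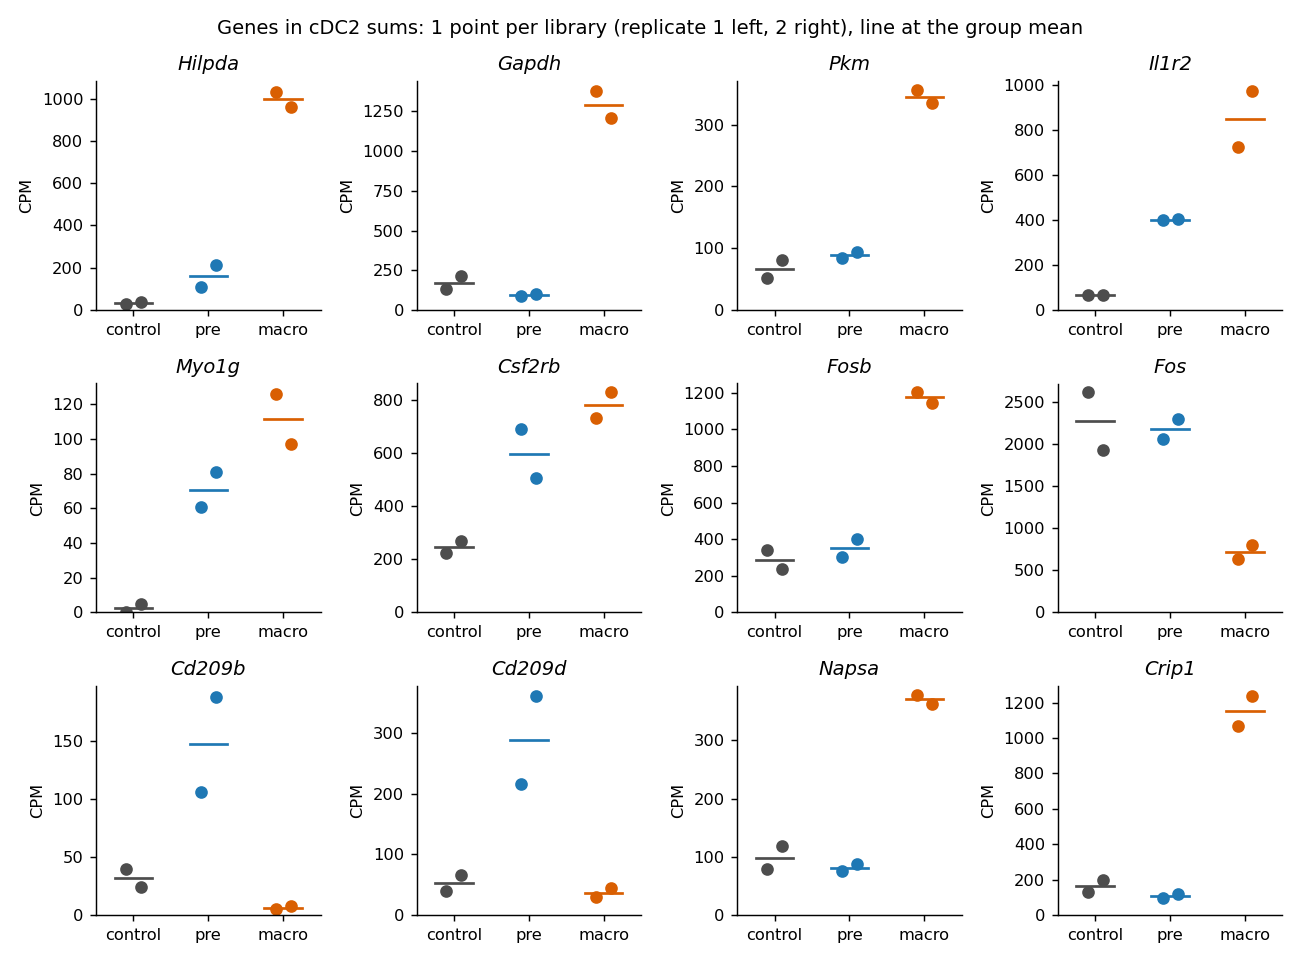
Level of 12 genes in the summed cDC2 counts (CPM, linear axes from 0), 1 point per library with a line at the group mean. Hilpda, Gapdh, Pkm, Fosb, Napsa and Crip1 stood apart in the macro-metastatic libraries, Cd209b and Cd209d peaked in the pre-metastatic libraries, and Fos was lowest with macro-metastases (639 and 795 CPM).

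A few genes of iron and redox handling rose. In this list 3 of 19 tested members rose against control (Hmox1, Txnrd1 and Fth1, where 1.38% of all genes rose) and 5 of 19 against pre-metastatic libraries (with Prdx5 and Ftl1, where 2.79% did), and 0 fell. The list's median difference from B cells of the same libraries was -0.06 and 0.13. Fth1, the ferritin heavy chain that stores iron, had 2474 and 2926 CPM for control, 3576 and 3229 for pre-metastatic and 6212 and 5812 for macro-metastatic libraries. All 3 groups were separate, and the rise against control was 1.15 (SE 0.17, adjusted p = 0.017). Hmox1, which breaks down haem, rose by 2.23 (SE 0.33, adjusted p = 0.017) in all members but had 1.40 (adjusted p = 0.34) in the stricter set. Its levels were 65.4 and 47.3 CPM for control, 49.6 and 62.8 for pre-metastatic and 269 and 231 for macro-metastatic libraries. Hmox1 is also abundant in Kupffer cells, whose summed markers had 137 and 1004, 255 and 261, and 1182 and 1054 CPM in the same order. The part of Kupffer RNA in this rise was not tested.

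Among conventional dendritic cell identity genes few were called. Of 27 tested members 3 rose and 0 fell against control, with a median of -0.00 (1.38% of all genes rose and 0.325% fell). In both macro-metastatic libraries 10 were higher than in both control libraries, where 29.3% of all genes tested were. The other way 8 were lower, and the share over all genes for that is not given here. The stricter set called 4 higher and 1 lower (Irf8, a transcription factor needed for cDC1, -2.62, adjusted p = 0.0213). The 3 that rose were Csf2rb and Csf2rb2, which encode beta chains of the receptors for GM-CSF, IL-3 and IL-5, and Napsa, an aspartic protease. Csf2rb had 222 and 269.9 CPM for control, 689 and 504 for pre-metastatic and 731 and 830.0 for macro-metastatic libraries. Both diseased groups lay above control. The rise with macro-metastases was 1.64 (SE 0.24, adjusted p = 0.017), and that before metastasis was 1.25 (adjusted p = 0.356, and 1.42 with adjusted p = 0.0426 in the stricter set).

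Napsa had 78.5 and 118, 75.2 and 87.1, and 378 and 362 CPM, so macro-metastatic libraries alone were high. Against pre-metastatic libraries Napsa rose by 2.19 (SE 0.24, adjusted p = 0.00279), while Naaa, an acid amidase enriched in dendritic cells, fell by 0.99 (SE 0.22, adjusted p = 0.0435). Sirpa, an inhibitory surface receptor of cDC2, had 432 and 421, 501 and 452, and 280.4 and 259 CPM. That difference was -0.82 (SE 0.19, adjusted p = 0.0513) against pre-metastatic libraries and -1.09 (adjusted p = 0.0143) in the stricter set. None of 17 genes that divide cDC2 into subsets passed against control or pre-metastatic libraries, with medians of -0.12 and -0.26.

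Few antigen presentation genes passed the test. None of 14 tested MHC class II genes passed against control (median 0.46). H2-Eb1 had 3141 and 2595 CPM for control, 3901 and 5514 for pre-metastatic and 4297 and 5738 for macro-metastatic libraries, a difference of 0.81 between macro-metastatic and control (SE 0.23, adjusted p = 0.102; 1.13, adjusted p = 0.0203 in the stricter set, whose members were chosen for transcripts of H2-Ab1 and Cd74, of the same gene group). Against pre-metastatic libraries 1 gene rose and 1 fell, where 2.79% of all genes rose and 0.651% fell. H2-DMa, which loads peptides onto MHC class II, had 144 and 47.3, 43.6 and 73.6, and 376 and 448 CPM, a rise of 2.81 (SE 0.39, adjusted p = 0.00925). Ciita, the master regulator of MHC class II genes, had 209 and 166, 334 and 285, and 151 and 146 CPM, a fall of 1.06 (SE 0.22, adjusted p = 0.0347) that the stricter set did not call (-0.81, adjusted p = 0.109). Among 19 MHC class I and peptide-loading genes, the immunoproteasome subunit Psmb8 alone rose. Its rise was 2.20 against control (SE 0.32, adjusted p = 0.0166) and 2.95 against pre-metastatic libraries, where 1.38% and 2.79% of all genes rose. The Psmb8 call against control was lost with at least 3 rule markers, with Flt3 required and without barcodes that also met another gate.

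In all members 0 of 18 costimulatory and checkpoint genes were called by edgeR in any comparison, with medians of 0.54, 0.88 and 0.48 in the order pre-metastatic against control, macro-metastatic against control and macro-metastatic against pre-metastatic. The stricter set called 1 of 17 higher against control (Pvr, a nectin-like ligand, 2.24, adjusted p = 0.0251) and 3 of 17 higher against pre-metastatic libraries (Pvr, Cd40 and Cd83). Cd86, a ligand that costimulates T cells, had 144 and 66.3 CPM for control, 181 and 179 for pre-metastatic and 276 and 324 for macro-metastatic libraries. The groups were separate, and the difference of 1.68 between macro-metastatic and control missed the threshold (SE 0.35, adjusted p = 0.0505). Cd274, which encodes PD-L1, had 26.2 and 28.4, 64.1 and 118, and 181 and 82.6 CPM, with 2.25 (SE 0.65, adjusted p = 0.116). Of the 18 genes 13 were higher in both macro-metastatic than in both control libraries, where 29.3% of all genes tested were.

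Ccr7, the receptor that guides dendritic cells to lymph nodes, is one of the maturation genes the rule limits, so its levels are given without a test. It had 13.1 and 4.73 CPM for control, 17.9 and 25.1 for pre-metastatic and 242 and 329 for macro-metastatic libraries. A Ccr7 UMI was found in 1 of 15 and 1 of 41, 9 of 200 and 23 of 195, and 39 of 109 and 37 of 100 members. Barcodes with 3 or more of these maturation genes were removed, so a rise of several together could not be seen. Of the others, Fscn1 had 13.1 and 37.9, 5.13 and 20.6, and 3.49 and 3.65 CPM, and Ccl22 had 39.3 and 4.73, 8.55 and 99.6, and 78.6 and 57.1 CPM. Ccl22 with macro-metastases thus lay above both control libraries and overlapped the pre-metastatic ones. Il4i1 and Cacnb3 were too sparse to be tested. B cells of the same libraries, which use Ccr7 themselves, had a Ccr7 log2 fold change of 1.00 between macro-metastatic and control.

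Few cytokine and chemokine genes passed the test. Of 16 cytokine genes Vegfa, a growth factor for blood vessels, rose against control (127 and 107 CPM against 13.1 and 23.7, adjusted p = 0.0345). That call was lost in 8 of 15 alternatives, among them the stricter set (1.85, adjusted p = 0.0825), Flt3 required (1.47, adjusted p = 0.253) and leaving out any control or macro-metastatic library. Vegfa and Il10 rose against pre-metastatic libraries. Over all genes 1.38% rose against control and 2.79% against pre-metastatic libraries. Il10, an anti-inflammatory cytokine, had no UMI in either control library, 4.27 and 13.5 CPM for pre-metastatic and 51.5 and 74.1 for macro-metastatic libraries, a rise of 2.80 between the last 2 groups (SE 0.53, adjusted p = 0.0306). Il10 was too sparse to be tested in the stricter set. Il1b, the precursor of IL-1 beta, had 1191 and 914, 2168 and 2989, and 2345 and 1831 CPM. Both diseased groups lay above control for Il1b, but neither difference passed (1.31, adjusted p = 0.307, and 1.00, adjusted p = 0.0685).

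Il1r2, the decoy receptor that takes up IL-1, had 65.4 and 66.3 CPM for control, 397 and 404 for pre-metastatic and 723 and 971 for macro-metastatic libraries. It stepped up at each stage with no overlap. The rise against control was 3.68 with macro-metastases (SE 0.28, adjusted p = 0.00244), and the difference before metastasis was 2.60 (SE 0.28, adjusted p = 0.0573; 2.42, adjusted p = 0.0127 in the stricter set). Neutrophils also carry Il1r2, and it is itself on the list of neutrophil markers summed above. That sum therefore includes its counts and is no separate measure, and the part of neutrophil RNA was not tested. Thinned members with an Il1r2 UMI were 6.67% and 7.89% for control, 42.6% and 38.8% for pre-metastatic and 52.8% and 57.0% for macro-metastatic libraries, beside 0% and 1.46%, 4.17% and 5.36%, and 14.3% and 10.5% of B cells. The share in cDC2 was thus above that in B cells, which were chosen to lack Lyz2, in every library.

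In the pattern recognition list 2 of 21 genes rose against control, where 1.38% of all genes rose. Nlrp3, the sensor of an inflammasome, had 131 and 284 CPM for control, 495 and 521 for pre-metastatic and 1056 and 1075 for macro-metastatic libraries, a rise of 2.25 (SE 0.29, adjusted p = 0.012; 3.01, adjusted p = 0.000378 in the stricter set). Clec4e, the receptor Mincle, rose by 2.89 (SE 0.39, adjusted p = 0.0131) and had 3.48 (adjusted p = 0.129) in the stricter set. Of 14 chemokine genes, the neutrophil attractant Cxcl3 rose against control. It had 0 and 4.73, 0.855 and 0.898, and 80.4 and 70.5 CPM. With 1 UMI in the control group, the ratio of counts was 21.1 (exact 95% interval 3.73 to 838). The call against control was lost in 4 of 12 alternatives, among them Flt3 required (3.38, adjusted p = 0.0834) and leaving out control replicate 2 or either macro-metastatic library. Before TMM scaling, Cxcl3 had 76.5 and 67.3 CPM in all macro-metastatic members and 5.53 and 56.1 CPM in the stricter set, where it was too sparse to be tested. Neutrophils of the macro-metastatic libraries had the highest level of any class (272 CPM). Ccl2, Cxcl3 and Ccl8 rose against pre-metastatic libraries, where 2.79% of all genes rose. Of these the stricter set could test Ccl2 alone (2.09, adjusted p = 0.0621). None of 29 interferon-stimulated genes passed in any comparison, with a median of -0.01 against control.

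A list of genes with suppressive roles had 5 of 19 rise and 0 fall against control (median 0.44, where 1.38% of all genes rose): Arg2, Il4ra, Lgals1, Lgals3 and Trem1. The list's median difference from B cells was -0.50 over 15 genes. Trem1 is better known as an amplifier of inflammation in neutrophils and monocytes. Il4ra, a chain of the IL-4 and IL-13 receptors, had 0 and 9.47 CPM for control, 15.4 and 17.1 for pre-metastatic and 122 and 137 for macro-metastatic libraries. From 2 control UMIs the ratio of counts was 17.8 (exact 95% interval 4.87 to 148), and the rise against pre-metastatic libraries was 2.99 (SE 0.33, adjusted p = 0.00281). Arg2, a mitochondrial arginase, had 13.1 and 28.4, 135 and 145, and 212 and 162 CPM, a rise of 2.96 against control (SE 0.40, adjusted p = 0.0131). That call was lost with at least 3 rule markers and without barcodes that also met another gate. The differences of Arg2 between pre-metastatic and control libraries (2.55, adjusted p = 0.273) and between macro-metastatic and pre-metastatic libraries (0.42, adjusted p = 0.357) did not pass. Lgals1, which encodes galectin-1, rose by 1.74 (SE 0.29, adjusted p = 0.0277) and had 2.18 (adjusted p = 0.233) in the stricter set.

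Immediate early genes, which respond within minutes to stimulation or tissue handling, split in direction. Of 27 tested, Fosb and Nr4a3 rose and Fos fell against control, with a median of -0.12. Over all genes 1.38% rose and 0.325% fell in that comparison. Fos had 2618 and 1922 CPM for control, 2059 and 2295 for pre-metastatic and 639 and 795 for macro-metastatic libraries, a fall of 1.66 (SE 0.21, adjusted p = 0.012) that the stricter set did not call (-1.02, adjusted p = 0.0811). Fosb had 340.3 and 237, 303 and 404, and 1203 and 1147 CPM, a rise of 2.07 (SE 0.25, adjusted p = 0.0101). These members of 1 transcription factor family thus moved in opposite directions, as they did in B cells (-1.27 for Fos and 2.53 for Fosb). Of 13 genes that respond to glucocorticoids, Il1r2 and Bhlhe40 rose and Tsc22d3, a mediator of glucocorticoid effects, fell by 1.40 (SE 0.26, adjusted p = 0.0404). The shares over all genes are those given for the immediate early genes.

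Few proliferation genes passed the test. Of 22 cell cycle genes 1 rose against control (Cenpa, a centromere histone; median 1.04) and 1 against pre-metastatic libraries (Rrm2, a subunit of ribonucleotide reductase; median 0.90), and the stricter set called neither (Cenpa 1.92, adjusted p = 0.136, and Rrm2 1.10, adjusted p = 0.232). Over all genes 1.38% were called higher against control and 2.79% against pre-metastatic libraries. In both macro-metastatic libraries 10 of 22 cell cycle genes were higher than in both control libraries (29.3% of all genes were). Against both pre-metastatic libraries 19 of 22 were higher (28.7% of all genes were). Members with at least 3 cell cycle genes, after thinning, were 3 of 15 and 7 of 38 for control, 31 of 188 and 36 of 183 for pre-metastatic and 37 of 108 and 30 of 93 for macro-metastatic libraries. Equally thinned B cells had 32.2% and 27.2%, 25.8% and 20.5%, and 30.6% and 29.3% in the same order. Control and pre-metastatic cDC2 lay below B cells of the same library, and macro-metastatic cDC2 (34.3% and 32.3%) above them. Thinned members with an Mki67 UMI were 13.3% and 7.89%, 8.51% and 7.65%, and 23.1% and 17.2%. Macro-metastatic B cells had 2.04% and 3.125%, and B cells of all other libraries stood higher. For Stmn1 thinned members had 6.67% and 5.26%, 4.26% and 3.28%, and 5.56% and 7.53%, so control and macro-metastatic libraries overlapped. Whether B cells are a fitting background here was not tested. The macro-metastatic sums also held 15 and 5 of the 29 members with 2 or more of the granulocyte precursor genes Mpo, Elane, Prtn3 and Ctsg. The part of these members in the cell cycle results was not tested.

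The genes with the largest changes by rule included several outside these lists. Myo1g, a motor protein of haematopoietic cell membranes, had 0 and 4.73 CPM for control, 60.7 and 80.8 for pre-metastatic and 126 and 97.2 for macro-metastatic libraries. Both diseased groups lay far above control, where 1 UMI was counted, and the ratio of macro-metastatic to control counts was 31.5 (exact 95% interval 5.59 to 1249). The fitted rise was 4.95 (SE 0.68, adjusted p = 0.0131), and it exceeded that in B cells by 4.82 (SE 0.85, adjusted p = 0.00833). cDC1 had 1.55 for the same comparison. The call was lost without control replicate 2 (adjusted p = 0.123), without macro-metastatic replicate 1 (4.81, adjusted p = 0.0823) and without barcodes that also met another gate (adjusted p = 0.117).

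Against pre-metastatic libraries Ppp1ca, Gapdh, Crip1, Ctsa and Snrpd2 rose and kept their calls under every alternative in which they were tested. Crip1, a small zinc-binding protein, had 131 and 199 CPM for control, 98.3 and 118 for pre-metastatic and 1068 and 1237 for macro-metastatic libraries, a rise of 3.41 (SE 0.24, adjusted p = 0.000374). Ctsa, a lysosomal carboxypeptidase, had 26.2 and 47.3, 29.9 and 41.3, and 327 and 431 CPM, a rise of 3.41 (SE 0.29, adjusted p = 0.00074). Macro-metastatic libraries stood apart for both. B cells had 3.27 for Crip1 and 2.68 for Ctsa, and cDC1 had 3.62 and 3.53, and the differences from B cells were 0.28 (adjusted p = 0.951) and 0.77 (adjusted p = 0.708). Slpi, a protease inhibitor, rose by 5.88 (SE 0.44, adjusted p = 0.00051), a call lost without barcodes that also met another gate (3.63, adjusted p = 0.0734). Before TMM scaling, Slpi had 197 and 214 CPM in all macro-metastatic members, 16.6 and 45.7 CPM in the stricter set, where it was too sparse to be tested, and 977 and 904 CPM in B cells of the same libraries.

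**Figure D5:**
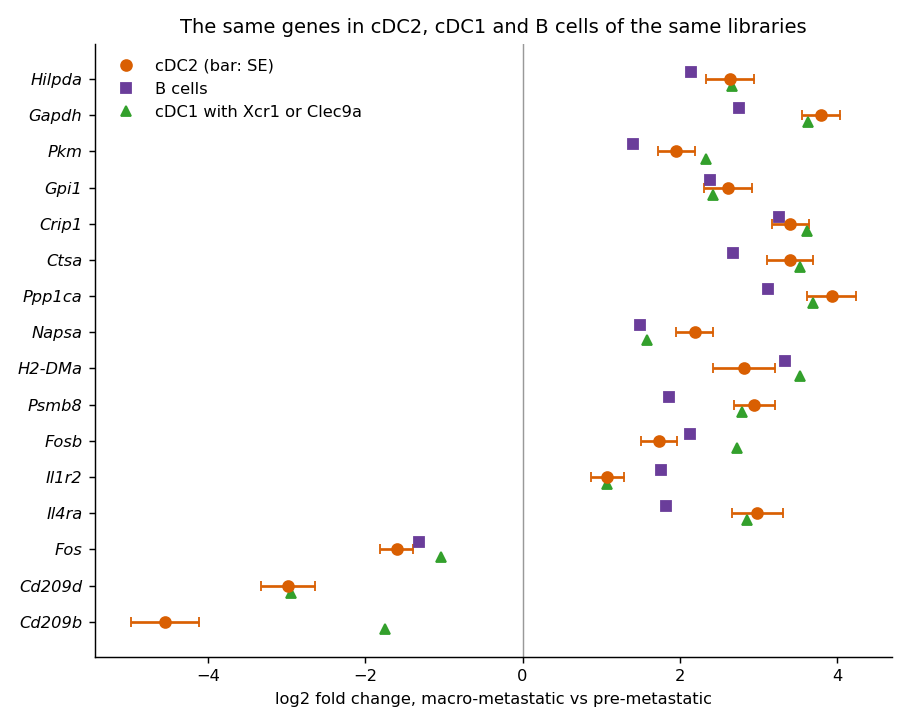
Log2 fold change between macro-metastatic and pre-metastatic libraries for 16 genes in cDC2 (circles with SE), B cells (squares) and cDC1 with Xcr1 or Clec9a (triangles) of the same libraries. The points drawn for a gene lie on the same side of 0 in every class measured, and Cd209b and Cd209d were not measured in the B cell fit.

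The genes that fell most against control, by the same rule, were Ago4, Pros1, Ctla2a, Tent5a, Setd1b, Fos, Atxn7 and Tsc22d3, with falls between -2.81 and -1.40. Of these Pros1, Ctla2a, Setd1b and Fos were not called in the stricter set. Pros1, the anticoagulant protein S that also binds receptors on phagocytes, had 131 and 256 CPM for control, 113 and 154 for pre-metastatic and 47.2 and 60.8 for macro-metastatic libraries (-1.94, SE 0.36, adjusted p = 0.0375), and -0.54 (adjusted p = 0.749) in the stricter set. Endothelial cells also express Pros1. The summed endothelial markers were 2805 and 2478 CPM in control, 1448 and 5704 CPM in pre-metastatic and 689 and 1135 CPM in macro-metastatic libraries. The part of endothelial RNA in the fall of Pros1 was not tested. Against pre-metastatic libraries Abhd15, Nhsl2, Aph1b, Slc5a3, Stard4 and St6gal1 fell beside the Cd209 genes, by -2.05 to -1.74, and Stard4 was not called in the stricter set (-1.36, adjusted p = 0.15). Among genes shared with macrophages, Mrc1, the mannose receptor, fell by 1.73 (SE 0.30, adjusted p = 0.0174) and C1qb, a complement subunit, rose by 2.69 (SE 0.41, adjusted p = 0.0124) in the same comparison.

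Few differences between cDC2 and other classes were called. In simulated counts the test against B cells missed most 4-fold changes, and the test against cDC1 was not simulated. Between macro-metastatic and control libraries the change in cDC2 was above that in B cells for 12 of 7900 genes and below it for 28 (percent called 0.506). Those below included the myeloid genes Csf1r, which had 0.29 in cDC2 and 3.34 in B cells, and Cd14, with 1.61 and 6.05. The same test called 9 genes between pre-metastatic and control (percent called 0.114) and 30 between macro-metastatic and pre-metastatic libraries (percent called 0.38). Malt1 and Rgs1, both outside the rule for named genes and picked after their values were seen, were above B cells in the comparison with control by 2.31 and 2.08 (edgeR, adjusted p = 0.00205 and 0.0013). Malt1 is a protease of NF-kappaB signalling and Rgs1 a brake on chemokine receptors. Against cDC1, 13 of 8898 genes differed (percent called 0.146), beside 6 between macro-metastatic and pre-metastatic libraries (percent called 0.0674). In the comparison with control, with Xcr1 or Clec9a required in the cDC1 gate, the chemokine gene Ccl9 alone differed (percent called 0.0113), with 0.17 in cDC2 and -2.38 as the difference (adjusted p = 0.0195).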

How the data were processed

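The 6 single-cell RNA libraries of mouse liver were read as the authors deposited them, as raw UMI counts per gene and barcode, with at least 500 UMIs in each deposited barcode. Per the submitters' processing notes, CASAVA 1.8, UMI-tools and the mm10 build were used. Aligner and annotation: not given in the sources used here. Total UMIs ran from 41914149 to 90819751 per library. Of 71908 barcodes, 66935 had at least 300 genes and under 25% mitochondrial UMIs. Predicted doublets (scrublet in scanpy 1.11.5, 7 members) were kept and left out as an alternative. Groups were taken from the sample labels.

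Counts of members were summed per library. Genes were tested with edgeR 4.0.16 (R 4.3.3; filterByExpr, TMM scaling, quasi-likelihood test, 1 fit over all 6 libraries, 3 residual degrees of freedom) with Benjamini-Hochberg adjustment and a threshold of 0.05. CPM values are TMM-scaled except those beside the rule's threshold and in marker sums. Shares were tested in the same way over 13 classes, and differences from B cells and cDC1 as an interaction of class and group with the library as a block. With 2 libraries a group, the smallest p of an exact permutation test is 0.333. Alternatives were DESeq2 1.42.0, its size factors, no low-count filter, other member rules, thinning and leaving out each library. The stricter set, the cDC1 gate that requires Xcr1 or Clec9a, and the class differences against pre-metastatic libraries were chosen after seeing the data.

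In simulated counts, the gene test recovered 74.5% of 8-fold and 27.8% of 4-fold changes between macro-metastatic and control libraries. Between macro-metastatic and pre-metastatic libraries it recovered 91.8% and 56.7% (8773 genes). The test of the difference from B cells recovered less, 30.1% and 7.59% against control. Against pre-metastatic libraries it recovered 54.2% and 13.9% (7768 genes). The simulated counts used the same fixed dispersion for every gene and library, and means pooled over the libraries. Unequal RNA of other cells, such as the hepatocyte markers of the control libraries, was not simulated. These rates therefore need not hold for the real counts.

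Named genes are the 8 rising and 8 falling called genes with the largest change in each comparison (mean log2 CPM of at least 5, groups not overlapping, level at least 10% of the highest other class), and up to 4 members of each list with the smallest adjusted p. Members, lists (537 genes in 33 lists) and the rule were chosen with earlier results of these data known.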

Additional observations from a re-analysis of the deposited data

Results flagged for a closer look

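The change between macro-metastatic and control libraries differed between cDC2 and B cells of the same libraries for 40 of 7900 genes, by an interaction test in edgeR. Of these, 2 are genes named by rule whose own change in cDC2 was called and that did not serve to choose the members. Myo1g rose more in cDC2, by a log2 value of 4.82 (SE 0.852, adjusted p = 0.00833), and was higher in both macro-metastatic libraries (126 and 97.2 CPM) than in both control libraries (0 and 4.73 CPM). Hilpda rose more in cDC2, by 2.52 (SE 0.446, adjusted p = 0.00833), with 1033 and 962 CPM against 26.2 and 37.9 CPM. The difference from cDC1 did not pass for either gene (Myo1g 4.12, adjusted p = 0.115, and Hilpda 1.16, adjusted p = 0.422).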

How the results depend on the processing

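No share, and no gene named by rule and called in all members, changed direction under the alternatives run, but the split of calls did. It turned to 156 higher and 195 lower between macro-metastatic and pre-metastatic libraries without pre-metastatic replicate 1, and to 87 higher and 133 lower between macro-metastatic and control libraries without control replicate 1. Differences from B cells turned from 8 above and 1 below to 1 and 23 (pre-metastatic against control, without control replicate 1), from 12 and 28 to 112 and 82 (macro-metastatic against control, no filter) and from 6 and 24 to 8 and 6 (macro-metastatic against pre-metastatic, without macro-metastatic replicate 2). The share of cDC2 ranged from 2.25 to 3.57 (pre-metastatic against control), 1.03 to 2.35 (macro-metastatic against control) and -1.40 to -1.06 (macro-metastatic against pre-metastatic, log2) when each library was left out, where a group left with 1 library is assumed to vary like the others. The macro-metastatic share against control missed the threshold with immune barcodes as total (1.14), TMM factors over classes (1.81) and without barcodes of another gate (1.47). Against pre-metastatic libraries it passed after thinning (-1.82) and with at least 3 markers (-1.76).

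Genes called between pre-metastatic and control libraries numbered 184 with no low-count filter, 17 with DESeq2, 14 with Flt3 required, 1 without doublets, 29 in the stricter set (13 higher, 16 lower) and 0 to 10 without single libraries. Macro-metastatic against control gave 1062 with no filter (581 higher), 377 with DESeq2 (201 higher, 176 lower), 37 without barcodes of another gate and 0 to 308 without single libraries. Macro-metastatic against pre-metastatic gave 1194 with no filter (650 higher), 85 without barcodes of another gate and 39 to 504 without single libraries.

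Differences from B cells numbered 9, 40 and 30 in the order pre-metastatic against control, macro-metastatic against control and macro-metastatic against pre-metastatic. They became 90, 194 and 141 with no filter, 4, 26 and 3 without barcodes of another gate, 5, 21 and 18 in the stricter set, and 2 to 25, 16 to 73 and 14 to 82 without single libraries. The first was 14 with DESeq2 size factors, 1 with at least 3 markers and 23 with Flt3 required. Differences from cDC1 numbered 0, 13 and 6. They became 75, 300 and 234 with no filter, 2, 20 and 36 with at least 3 markers, 1, 33 and 41 with Flt3 required, and 0 to 34, 0 to 107 and 0 to 44 without single libraries. The first was 3 without barcodes of another gate. The last was 11 without doublets and 62 in the stricter set. With Xcr1 or Clec9a required, both comparisons of macro-metastatic libraries gave 1. The cause of these moves was not tested.

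With the replicate number as a block, shares differed by 2.81 (adjusted p = 0.0595) and 1.60 (adjusted p = 0.0767) from control, and 9, 468 (255 higher, 213 lower) and 857 (505 higher, 352 lower) genes were called. Same-numbered libraries correlated at 0.112, 0.0259 and 0.172 in their deviations, so the numbers were not taken to pair them. The 15 and 41 control members limit every comparison with control.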
